A study of Mus musculus with 18 samples.

Results

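The ligands and receptors of the tumor necrosis factor (TNF) superfamily were followed in cultured normal fibroblasts (NFs) of the mouse mammary gland exposed to the medium of breast tumor cells. Members were the rows of the gene count table with a symbol of the Tnfsf or Tnfrsf series, together with Tnf, Lta, Ltb, Ltbr, Cd40, Cd40lg, Fas, Fasl, Cd27, Cd70, Eda, Edar, Eda2r and Ngfr. This gave 46 of the 55486 genes in the table, and 30 of the 46 passed the filter on low counts that left 14273 genes to test. NFs came from mammary glands of FVB/n females, which per the study's methods were 8 to 16 weeks old and were pooled, 4 to 6 mice to a sort. The labels give FVB/n as the genotype. The study's own description of its NFs names as donors Cre-negative mice of the floxed tumor strain, with both Cdh1 alleles floxed, or mTmG reporter mice, and which of them gave which library is not given in the sources used here. Cells negative for EpCAM, CD49f, CD45 and CD31 were split by CD26, the membrane-bound dipeptidyl peptidase made from Dpp4, into CD26- and CD26+ NFs. Cultures then spent 7 days in conditioned medium, either the control or that of tumor cells (CM). CM came from 6 cell lines of WEPtn tumors, a model of invasive lobular carcinoma in which Cre under the Wap promoter acts in mammary epithelium and deletes floxed alleles, those of Cdh1 among them. The lines were 13-MCB-17, 10-SJK-221, 18-MCB-12, 13-MCB-44, 13-MCB-90 and 13-MCB-138. CD26- NFs gave 3 libraries in control medium (replicates 1 to 3) and 6 in CM (replicates 4 to 9), and CD26+ NFs gave 3 in control medium (replicates 10 to 12) and 6 in CM (replicates 13 to 18). Each line conditioned 1 culture of each cell type, so the spread within a CM group holds the differences between lines. The sources used here do not say that control replicates came from separate sorts of mice, and p-values then measure only the spread between these libraries.

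TNF superfamily ligands are mostly trimeric membrane proteins that can be shed from the cell, and their receptors cluster when a ligand binds. Receptors with a death domain, such as Fas and Tnfrsf1a, can assemble complexes that activate caspases. Receptors without one recruit TRAF adaptors and activate NF-kB and MAP kinases, and decoy receptors hold a ligand without passing on a signal. Many members are known from lymphocytes, but fibroblasts and other stromal cells use several of them, and in bone stromal Tnfsf11 (RANKL) drives osteoclast formation.

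Total counts ran from 9725723 to 14585349 per library, and the members together took from 0.0818% to 0.110% of them. All 10 fibroblast markers passed the filter, and their summed level ran from 25507 to 28380 CPM (counts relative to the scaled library size) in CD26- control libraries, 16320 to 31188 CPM in CD26- CM libraries, 76424 to 96014 CPM in CD26+ control libraries and 38748 to 64870 CPM in CD26+ CM libraries. The gate was not mirrored in the RNA of the control cultures, in which Dpp4 lay between 0 and 0.171 CPM in CD26- and between 0 and 0.0809 CPM in CD26+ libraries. In CM it lay between 0.0776 and 0.881 CPM in CD26- and between 0.715 and 7.80 CPM in CD26+ libraries. All 12 epithelial markers were also tested, among them Epcam and Itga6 (CD49f), which the sort selected against. Their summed level was 4733 to 5232 CPM in CD26- control, 2956 to 4822 CPM in CD26- CM, 784 to 1400 CPM in CD26+ control and 710 to 1695 CPM in CD26+ CM libraries. Markers of T, B and NK cells summed to at most 1.05 CPM in any library, and Cd3g and Cd8a were at 0 in all. Endothelial markers summed to at most 8.61 CPM. Myeloid markers summed to 24.4 to 54.9 CPM and adipocyte markers to 26.3 to 104 CPM. In a bulk library fewer cells of a type and less RNA per cell cannot be told apart. One CD26+ CM library, replicate 18 with medium of line 13-MCB-138, lay closest of the 6 to the CD26+ controls in 67.5% of the 4065 genes that changed with CM in CD26+ NFs. Results that cross the threshold without it are given below for the members described in each library.

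Per kilobase of exons the most abundant members were receptors. Tnfrsf12a (Fn14, the receptor of TWEAK) had 113 CPM per kb in CD26- control and 68.2 in CD26+ control libraries. Tnfrsf1a (TNFR1, the main receptor of TNF) had 49.5 and 103 CPM per kb, and Ltbr, the lymphotoxin beta receptor, 35.1 and 45.6. Among ligands the highest group means on this scale were 36.8 CPM per kb for Tnfsf11 in CD26+ control and 22.4 for Tnfsf15 (TL1A) in CD26- CM libraries. The ligands of the most abundant receptors were far lower, with at most 0.979 CPM per kb for Tnf and 5.31 for Tnfsf12 (TWEAK). The 16 members not tested had at most 7 reads in a library. Cd40lg, Cd70 and Tnfrsf17 had 0 reads in all libraries. Tnfsf18 reached 7 reads, Lta 6, Tnfsf13 and its antisense RNA Tnfsf13os 5 each, Cd27 4, Tnfrsf8 and Tnfsf4 3 each, Edar, Ltb and Tnfrsf13c 2 each, and Fasl, Tnfrsf13b and Tnfsf14 1 each. Thus Fas and Cd40 were expressed in these cultures while Fasl and Cd40lg stayed at 1 and 0 reads.

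**Figure D1:**
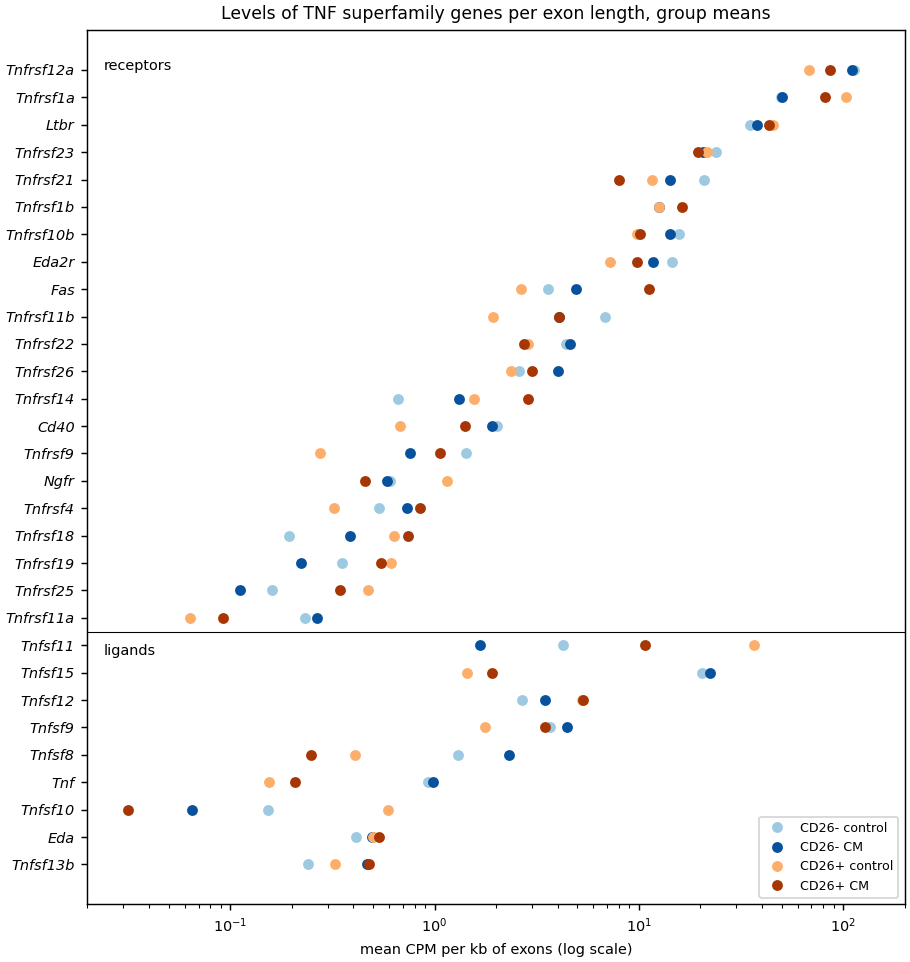
Mean level of the 30 tested members in the 4 groups, in CPM per kilobase of exons on a log axis, with receptors above and ligands below the line. Tnfrsf12a, Tnfrsf1a and Ltbr lead the receptors, and Tnfsf11 and Tnfsf15 lie far apart between CD26- (blue) and CD26+ (orange) NFs.

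The 4 members with the largest CM changes in CD26+ NFs, of which Fas and Tnfrsf9 rose and Tnfsf10 and Tnfsf11 fell, are shown with their promoters, from 250 bases before to 50 bases after the RefSeq start on GRCm38.p6. Capitals mark kappaB consensus and AP-1 matches on either strand. The first was searched as GGGRNWYYCC and the second as TGANTCA, where other letters than A, C, G and T stand for sets of bases.
Fas, chr19:34290409-34290708, plus strand: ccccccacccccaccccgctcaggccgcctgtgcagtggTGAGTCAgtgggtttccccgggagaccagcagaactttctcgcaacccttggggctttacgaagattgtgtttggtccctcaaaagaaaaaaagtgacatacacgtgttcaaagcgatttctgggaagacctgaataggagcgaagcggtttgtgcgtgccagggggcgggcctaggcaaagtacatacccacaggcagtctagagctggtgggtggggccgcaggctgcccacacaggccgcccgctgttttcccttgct
Tnfrsf9, second RefSeq start, chr4:150927749-150928048, plus strand: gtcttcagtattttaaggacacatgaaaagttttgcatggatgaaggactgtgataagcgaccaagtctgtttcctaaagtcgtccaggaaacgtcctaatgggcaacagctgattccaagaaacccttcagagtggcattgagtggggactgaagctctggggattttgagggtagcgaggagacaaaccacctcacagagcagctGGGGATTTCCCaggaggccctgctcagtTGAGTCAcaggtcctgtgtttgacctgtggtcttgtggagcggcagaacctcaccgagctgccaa
Tnfsf10, chr3:27316827-27317126, plus strand: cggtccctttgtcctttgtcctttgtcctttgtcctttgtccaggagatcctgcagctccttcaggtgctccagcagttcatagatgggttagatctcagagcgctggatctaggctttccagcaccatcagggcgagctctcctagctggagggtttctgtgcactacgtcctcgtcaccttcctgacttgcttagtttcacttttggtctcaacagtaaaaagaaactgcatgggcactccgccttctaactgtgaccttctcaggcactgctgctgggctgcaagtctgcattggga
Tnfsf11, chr14:78307994-78308293, minus strand: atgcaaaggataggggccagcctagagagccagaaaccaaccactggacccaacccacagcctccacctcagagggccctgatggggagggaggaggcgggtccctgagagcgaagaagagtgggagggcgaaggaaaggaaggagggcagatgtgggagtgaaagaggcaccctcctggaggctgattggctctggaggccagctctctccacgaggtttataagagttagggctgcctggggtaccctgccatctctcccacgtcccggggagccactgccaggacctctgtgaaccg
The Fas promoter held an AP-1 match that begins at -211 from the start. The Tnfrsf9 promoter held an AP-1 match at -15 and 2 overlapping kappaB matches at -43 and -42. No match to either motif lies in these windows of Tnfsf10, Tnfsf11 and the first Tnfrsf9 start. RefSeq promoters were found for 35 of the 46 members. Of these 3 held a kappaB consensus match (8.57%), against 5.14% of all 27025 genes with a promoter, and 6 held AP-1 (17.1%), against 8.97%. A match describes the letters and not a binding site, and no match says only that these letters are not in the window.

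The first comparison asked how CM changed these genes in each cell type. In CD26+ NFs 10 of the 30 tested members rose and 5 fell at a false discovery rate (FDR, the edgeR adjusted p over all tested genes) under 0.05. Over all tested genes 15.1% rose and 13.3% fell. The median log2 fold change of the members was 0.28, against -0.004 over all tested genes. In CD26- NFs 4 members rose and 1 fell, against 7.85% and 7.2% of all genes. Past a log2 fold change of 2 as well, the limit of the study, Fas rose and Tnfsf10 fell in CD26+ NFs, where 1.59% of all genes rose and 0.413% fell. No member passed both limits in CD26- NFs, where 0.897% of all genes did. Of the TRAF-binding receptors 7 of 11 tested rose in CD26+ NFs and none fell, and of 4 decoy receptors 1 rose, whereas 1 of 6 death domain receptors rose and 3 fell. Of 9 tested ligands 1 rose and 2 fell. Without control replicate 11, 6 members rose in CD26+ NFs, and without control replicate 1 or 3, 1 member rose in CD26- NFs.

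A test of the difference between both CM effects asked whether the cell types responded unequally. The effect was more positive in CD26+ NFs for 6 members (Fas, Tnfrsf9, Tnfrsf11b, Cd40, Eda2r and Tnfrsf12a) and more negative for 3 (Tnfsf10, Tnfsf8 and Tnfrsf1a). In all 7.44% of genes passed this test, 4.51% with a positive and 2.93% with a negative difference. Past 2 on the log2 scale as well were Tnfrsf9 and Tnfsf10, against 0.252% of all genes with a positive and 0.133% with a negative difference. The positive count was 2 without CD26+ control replicate 11.

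**Figure D2:**
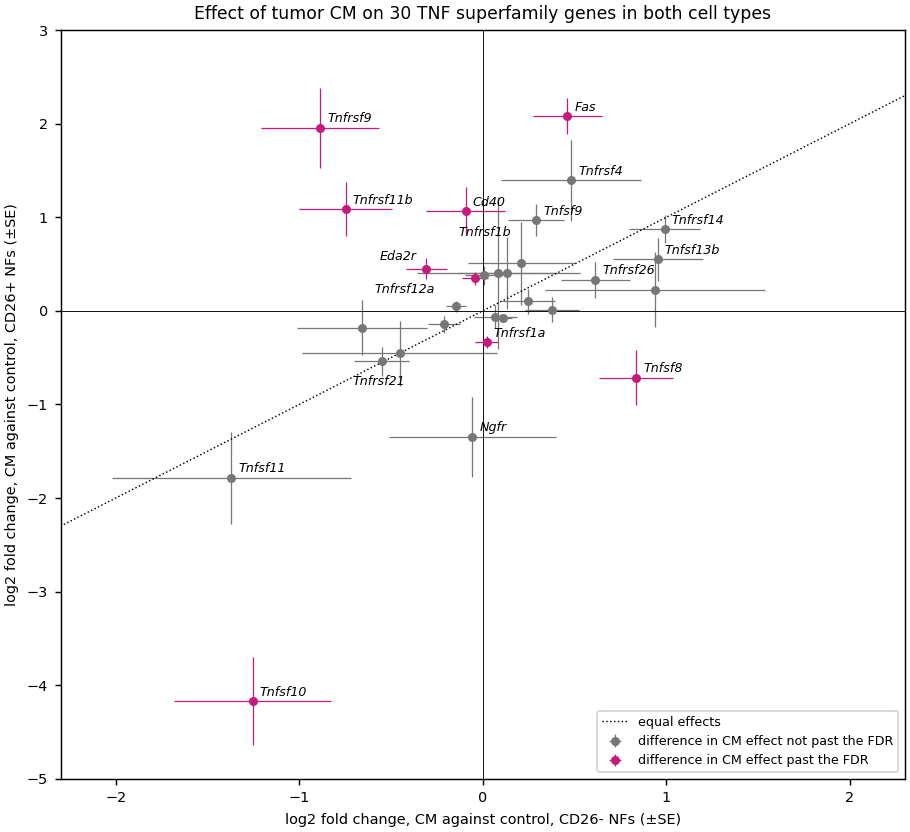
Log2 fold change between CM and control medium for the 30 tested members in CD26- NFs (horizontal) and CD26+ NFs (vertical), with SE bars. Pink points are the 9 members whose CM effects differed between the cell types at the FDR, names are given for members past the FDR in any of the 3 tests, and Tnfrsf9 and Tnfsf10 lie farthest from the dotted line of equal effects.

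Among the ligands, Tnfsf10 (TRAIL, which engages death receptors) fell most with CM in CD26+ NFs. CD26+ control libraries had 3.80, 3.33 and 2.23 CPM, and the 6 CD26+ CM libraries 0.0750 to 0.357 with a median of 0.129. The groups did not overlap, and reads fell from 122 in 3 libraries to 12 in 6 libraries, a level 19.0-fold lower with a 95% counting interval of 10.5 to 37.8. The log2 fold change was -4.17 ± 0.47 (SE, FDR 6.96e-07). In CD26- NFs the level was 0.968, 0.512 and 0.948 CPM in control medium and 0.0702 to 0.531 with a median of 0.388 in CM, with overlap of both groups and a log2 fold change of -1.25 ± 0.43 that missed the threshold (FDR 0.0506) and passed it in 4 alternatives (FDR down to 0.0360). With the epithelial marker mean as a covariate it was -1.23 (FDR 0.136). The CM effects differed by -2.92 ± 0.63 on the log2 scale (FDR 0.00873), and this call held in every alternative that tested the gene.

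Tnfsf11, the RANK ligand that also acts between hormone-sensing and progenitor cells of the mammary gland, was per kilobase the most abundant ligand of CD26+ control cultures. It had 78.0, 90.8 and 78.1 CPM there and 5.00 to 51.5 CPM in CM with a median of 23.2. All 6 CM libraries lay below all 3 controls, over a range of 10.3-fold among lines, and the log2 fold change was -1.78 ± 0.49 (FDR 0.0104). In CD26- NFs the controls had 9.49, 9.39 and 9.68 CPM and the CM libraries 1.12 to 7.52 with a median of 3.22. These groups did not overlap either, but the change of -1.37 ± 0.65 did not pass the test (FDR 0.161), nor did the difference between the cell types (-0.41 ± 0.82, FDR 0.803). The summed fibroblast markers were also lower in CM in CD26+ NFs, in the ranges above, but the list did not fall as a whole. Of its 10 genes Col1a1, Col1a2, Col3a1, Fn1 and Vim fell, while Dcn, Lum and Pdgfra rose, Dcn from a mean of 390 to 3566 CPM. Their part in the change of Tnfsf11 was not tested.

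Tnfsf8, the ligand of CD30, had CM effects that differed between the cell types. In CD26- NFs it rose from 4.07, 5.64 and 5.14 CPM to between 5.12 and 12.6 CPM with a median of 8.81. One CM library overlapped the controls, and the log2 fold change was 0.83 ± 0.20 (FDR 0.0108). The call was lost without control replicate 1 (FDR 0.0657) or 3 (FDR 0.0510) and with the epithelial marker mean as a covariate (0.79, FDR 0.0596). In CD26+ NFs it had 1.62, 1.41 and 1.63 CPM in control medium and 0.606 to 1.19 CPM in CM with a median of 0.956, without overlap, a change of -0.72 ± 0.29 that missed the threshold (FDR 0.0757, and 0.0434 with the compared groups only). The difference of -1.55 ± 0.36 passed (FDR 0.0154) and held in every alternative that tested it.

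Tnfsf9, the ligand of CD137, rose in CD26+ NFs from 2.1, 2.07 and 2.67 CPM to between 3.57 and 5.38 CPM with a median of 4.46. The groups did not overlap, and the log2 fold change was 0.97 ± 0.17 (FDR 0.000472). CD26- NFs had 5.23, 4.95 and 3.99 CPM in control medium and 4.51 to 7.13 CPM in CM with a median of 5.87, with overlap and no call (FDR 0.211). The difference between both effects missed the FDR, but passed without replicate 18 (0.73, FDR 0.0352), without CD26- CM replicate 7 (FDR 0.0415) and with the CM line as a block (FDR 0.0403). An unnamed noncoding gene, Gm11110, overlaps 14.9% of its exon bases on the other strand. Tnfsf13b (BAFF, a survival factor of B cells) rose in CD26- NFs from 1.66 ± 0.13 (SD, n = 3) to 3.22 ± 0.53 CPM (SD, n = 6), which is 0.95 ± 0.25 on the log2 scale (FDR 0.0138, and 0.91, FDR 0.0523, with the epithelial covariate). Its means in CD26+ NFs were 2.23 ± 0.26 and 3.27 ± 0.98 CPM (FDR 0.0786). Tnf, Tnfsf15, Tnfsf12 and Eda (ectodysplasin) had no CM call in either cell type. Eda had group means between 2.83 and 3.66 CPM and no call in any contrast.

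Among the receptors with a death domain, Fas rose most. CD26+ control libraries had 5.18, 5.93 and 5.34 CPM and CD26+ CM libraries 15.3 to 29.0 CPM with a median of 23.5. The lowest CM library, that of line 13-MCB-138, still lay above all controls, and the log2 fold change was 2.08 ± 0.19 (FDR 1.17e-06). In CD26- NFs the controls had 8.62, 6.41 and 7.11 CPM and the CM libraries 7.65 to 13.0 CPM with a median of 9.87, with overlap and a change of 0.46 ± 0.19 (FDR 0.109). The effects differed by 1.62 ± 0.27 (FDR 0.00388), in every alternative run. In control medium the cell types did not differ in Fas at the FDR (-0.42 ± 0.23, FDR 0.136, and 0.0259 with the compared groups only), whereas in CM CD26+ NFs were higher by 1.20 ± 0.14 (FDR 1.21e-06) without overlap between the groups.

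Tnfrsf1a fell with CM in CD26+ NFs, from 255, 285 and 259 CPM to between 204 and 227 CPM with a median of 207. The groups did not overlap but the change was small (-0.33 ± 0.06, FDR 0.000525). Levels in CD26- NFs were 126, 133 and 126 CPM in control medium and 120 to 144 CPM in CM with a median of 128 (0.02 ± 0.06, FDR 0.851). The difference of -0.35 ± 0.09 passed (FDR 0.0199) but was lost without CD26+ control replicate 11 or CD26- control replicate 1 or 3, with an FDR of at most 0.0654. Tnfrsf1b (TNFR2), the other TNF receptor, which has no death domain, moved the other way in CD26+ NFs. Its mean rose from 47.8 ± 2.8 to 62.2 ± 8.5 CPM (0.38 ± 0.10, FDR 0.0105), while it was 47.9 ± 5.5 and 48.1 ± 3.4 CPM in CD26- NFs (FDR 0.975). The difference of 0.37 was not called (FDR 0.115) but passed with the CM line as a block (FDR 0.0214).

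Tnfrsf21 (DR6) fell with CM in both cell types by nearly the same amount. In CD26- NFs it went from 83.2, 88.5 and 84.7 CPM to between 46.8 and 76.4 with a median of 54.4, without overlap (-0.55 ± 0.15, FDR 0.0207). In CD26+ NFs it went from 47.6, 44.7 and 50.7 CPM to between 27.1 and 46.1 with a median of 30.7, where 1 CM library overlapped the controls (-0.54 ± 0.16, FDR 0.0144). The call in CD26- NFs was lost without any 1 of the 3 controls (FDR up to 0.0747), without a filter on low counts (FDR 0.0601) and with the epithelial marker mean as a covariate (-0.35, FDR 0.0886). In CD26+ NFs it was lost without control replicate 12 (FDR 0.0628) and without the filter (FDR 0.0518) and held with that covariate. Ngfr, the p75 neurotrophin receptor, fell in CD26+ NFs from 3.24, 5.19 and 3.41 CPM to between 0.675 and 3.84 CPM with a median of 1.16. One CM library overlapped the controls, and the call (-1.34 ± 0.43, FDR 0.0234) was lost without control replicate 11 (FDR 0.124), without the filter (FDR 0.0665) and with the compared groups only (FDR 0.0572). In CD26- NFs it had 2.32, 2.05 and 1.90 CPM in control medium and 1.02 to 3.54 CPM in CM with a median of 1.71 (FDR 0.953). The difference of -1.29 in CM effect was not called (FDR 0.207), but passed at -1.76 without replicate 18 (FDR 0.0220) and with the CM line as a block (FDR 0.0142). Tnfrsf10b, the mouse death receptor of TRAIL, was not called with CM in either cell type, at 85.6 ± 2.7 and 77.4 ± 3.5 CPM in CD26- NFs and 53.2 ± 3.9 and 55.0 ± 3.2 CPM in CD26+ NFs. Tnfrsf25 (DR3) had no CM call either.

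Among the receptors that bind TRAFs, Tnfrsf9 (CD137, a costimulatory receptor of T cells) had the largest difference in CM effect between the cell types. It rose in CD26+ NFs from 1.13, 0.519 and 0.594 CPM to between 1.34 and 4.31 CPM with a median of 2.80. The groups did not overlap (1.96 ± 0.43, FDR 0.00169). In CD26- NFs the controls had 4.94, 3.50 and 3.25 CPM and the CM libraries 1.33 to 2.95 CPM with a median of 2.01. These groups did not overlap either, yet the change of -0.89 ± 0.32 missed the threshold (FDR 0.0665). The FDR was 0.0403 with the compared groups only and 0.259 with the epithelial marker mean as a covariate, at -0.67. The effects differed by 2.84 ± 0.54 (FDR 0.00513) in every alternative that tested the gene. CD26+ NFs were lower in control medium (-2.37 ± 0.46, FDR 0.000201), and no difference was called in CM (0.48 ± 0.27, FDR 0.142). The value in control medium was -1.54 with the epithelial marker mean as a covariate (FDR 0.206). With the CM line as a block the difference in CM passed at an FDR of 0.0290, and without replicate 18 at 0.0423.

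Cd40, through which T cells activate other cells, rose in CD26+ NFs from 2.99, 1.11 and 2.82 CPM to between 3.75 and 6.44 CPM with a median of 4.69, without overlap (1.07 ± 0.26, FDR 0.00475). Levels in CD26- NFs were 6.49, 5.72 and 8.46 CPM in control medium and 5.57 to 8.33 CPM in CM with a median of 6.24 (FDR 0.816). The difference of 1.16 ± 0.34 only just passed (FDR 0.0417) and was lost in 14 alternatives, with an FDR up to 0.133. Eda2r, the receptor of the A2 form of ectodysplasin, rose in CD26+ NFs from 43.5, 39.3 and 44.3 CPM to between 46.3 and 73.8 CPM with a median of 55.4, without overlap (0.45 ± 0.11, FDR 0.00786). CD26- NFs had 83.1, 85.2 and 88.7 CPM in control medium and 64.6 to 75.1 CPM in CM with a median of 68.1. There, too, the groups did not overlap, at a change of -0.31 ± 0.11 (FDR 0.0694). The FDR was 0.00622 with the compared groups only, up to 0.221 without 1 library and 0.308 with the epithelial marker mean as a covariate, at -0.19. The rise in CD26+ NFs had an FDR of 0.0614 without CD26+ control replicate 11, and it also missed the threshold with the compared groups only. The difference was 0.76 ± 0.16 (FDR 0.0107, and 0.0527 without CD26+ control replicate 11).

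Tnfrsf12a rose in CD26+ NFs from 134, 128 and 133 CPM to between 139 and 188 CPM with a median of 169 (0.35 ± 0.07, FDR 0.00151). CD26- NFs had 229, 224 and 203 CPM in control medium and 203 to 230 CPM in CM with a median of 211 (FDR 0.743). The difference of 0.39 ± 0.10 passed (FDR 0.0246) but was lost without any of 5 control libraries, with an FDR up to 0.0966. Tnfrsf14 (HVEM, which binds LIGHT and BTLA) was the one member that rose in both. It went from 1.06, 0.769 and 1.02 CPM to between 1.63 and 2.19 with a median of 1.88 in CD26- NFs (0.99 ± 0.19, FDR 0.00324). In CD26+ NFs it went from 2.35, 2.15 and 2.23 CPM to between 3.40 and 4.65 with a median of 4.16 (0.88 ± 0.15, FDR 0.000341). Neither pair of groups overlapped, and the effects did not differ at the FDR (-0.12 ± 0.24, FDR 0.870).

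Tnfrsf4 (OX40), a costimulatory receptor of T cells, rose in CD26+ NFs from 0.648, 0.370 and 0.297 CPM to between 0.357 and 1.77 CPM with a median of 1.21, where 1 CM library overlapped the controls (1.39 ± 0.43, FDR 0.0150). The call was lost without control replicate 11 or 12 (FDR up to 0.0815) and with the compared groups only (FDR 0.0678). In CD26- NFs it had 0.871, 0.769 and 0.541 CPM and 0.854 to 1.19 CPM with a median of 0.962 (FDR 0.415). Ltbr, Tnfrsf11a (RANK), Tnfrsf18 (GITR) and Tnfrsf19 (TROY) had no CM call in either cell type. Ltbr had group means of 82.7, 89.4, 107 and 102 CPM in CD26- control, CD26- CM, CD26+ control and CD26+ CM libraries, and its difference in CM effect of -0.19 passed with the CM line as a block (FDR 0.0367, against 0.0774 without).

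Among the decoy receptors, Tnfrsf11b (osteoprotegerin, the soluble decoy of Tnfsf11 and Tnfsf10) rose in CD26+ NFs. It went from 7.28, 4.07 and 4.90 CPM to between 5.99 and 15.2 CPM with a median of 12.4, where the library of line 13-MCB-138 overlapped the controls (1.09 ± 0.29, FDR 0.0105). That call was lost without control replicate 11 or 12 (FDR up to 0.0717). In CD26- NFs the controls had 19.7, 19.5 and 18.6 CPM and the CM libraries 7.91 to 17.9 CPM with a median of 10.4. These did not overlap, at a change of -0.75 ± 0.26 just short of the threshold (FDR 0.0546) that passed in 4 alternatives (FDR down to 0.0108). With the epithelial marker mean as a covariate it was -0.45 (FDR 0.252), and without 1 library the FDR reached 0.137. The difference was 1.84 ± 0.39 (FDR 0.0109, and 0.0518 without CD26+ control replicate 11). The cell types were thus apart in control medium, with CD26+ NFs lower by 1.83 on the log2 scale (-1.83 ± 0.32, FDR 0.000146), and close in mean in CM at 11.5 ± 3.7 and 11.5 ± 3.3 CPM (0.00 ± 0.22, 95% interval -0.42 to 0.42). With the epithelial marker mean as a covariate the value in control medium was -0.62 and no longer a call (FDR 0.456), and that in CM was 1.07 (FDR 0.0819). Tnfrsf26 rose in CD26- NFs from 8.37 ± 0.94 to 12.9 ± 2.1 CPM (0.61 ± 0.19, FDR 0.0375, and 0.46, FDR 0.171, with that covariate). Its means in CD26+ NFs were 7.66 ± 0.84 and 9.62 ± 2.7 CPM (FDR 0.211). Tnfrsf22 and Tnfrsf23, decoys of TRAIL, had no CM call. They share 17.3% and 18.0% of their 50-base words with each other, so counts between them are uncertain.

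**Figure D3:**
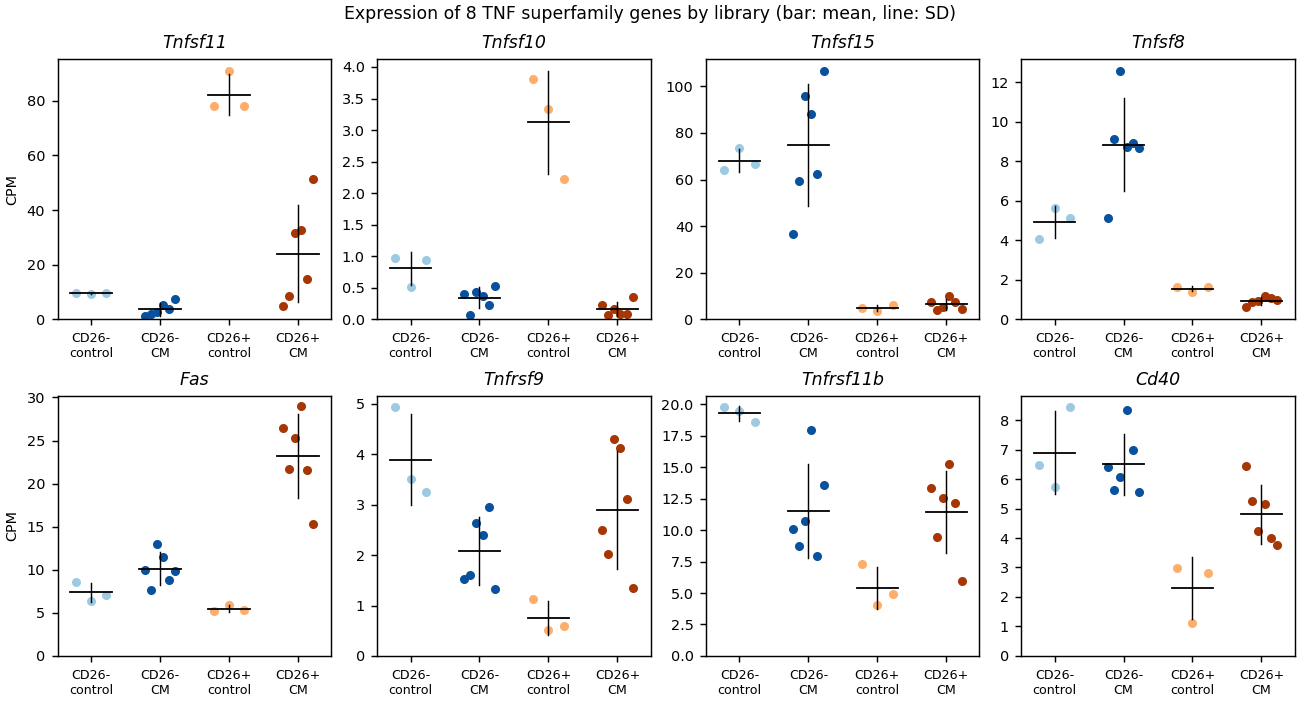
CPM of 8 members in each of the 18 libraries, 1 point per library, with the mean (bar) and SD (line) of each group and axes that start at 0. Tnfsf10 and Tnfsf11 fell and Fas, Tnfrsf9, Tnfrsf11b and Cd40 rose with CM in CD26+ NFs, and Tnfsf15 and Tnfsf8 were lower in CD26+ than in CD26- NFs in both media.

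The second comparison set CD26+ against CD26- NFs in each medium. In control medium 8 members were higher and 13 lower in CD26+ NFs, against 24.9% higher and 25.4% lower over all tested genes (50.3% in all). In CM 10 were higher and 11 lower, against 29.3% and 29.2% (58.5% in all). Past a log2 fold change of 2 as well were Tnfsf11, which was higher, and Tnf, Tnfrsf9 and Tnfsf15, which were lower, in control medium, where 5.96% of all genes passed. In CM they were Tnfsf11 on the higher side, against 1.48% of all genes, and Tnf, Tnfsf15 and Tnfsf8 on the lower side, against 2.68%. The median log2 fold change of the members was -0.29 in control medium and -0.04 in CM. Of the 12 epithelial markers 10 were lower in CD26+ NFs in both media. With the mean of these markers as a covariate, which nearly follows the cell type, 3 members were higher and 3 lower in control medium, and 4 higher and 2 lower in CM. The calls that held were those of Ltbr, Tnfrsf14, Tnfrsf1a, Tnfrsf10b, Tnfrsf12a and Tnfsf15 in control medium and those of Fas, Tnfrsf14, Tnfrsf1a, Tnfrsf1b, Tnfsf15 and Tnfsf8 in CM, and the other calls missed the FDR in this fit. The part of epithelial cells in these differences was not tested.

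Tnfsf15, the ligand of DR3, differed most. CD26- controls had 64.0, 73.7 and 66.7 CPM and CD26+ controls 4.69, 3.78 and 6.01 CPM (-3.82 ± 0.39, FDR 7.78e-07). In CM CD26- libraries had 36.8 to 107 CPM with a median of 75.4 and CD26+ libraries 3.83 to 9.99 CPM with a median of 6.42 (-3.54 ± 0.26, FDR 1.68e-08). No CD26+ library reached a CD26- library, and the calls held with the epithelial covariate at smaller values of -2.63 and -2.54. Its receptor Tnfrsf25 went the other way at low levels. It had 0.581, 0.171 and 0.338 CPM in CD26- and 1.30, 0.963 and 0.965 CPM in CD26+ controls (1.57 ± 0.50, FDR 0.00959), and 0.0732 to 0.525 with a median of 0.213 against 0.555 to 1.25 with a median of 0.648 in CM (1.57 ± 0.40, FDR 0.00138). With the epithelial covariate the log2 fold changes were nearly the same, at 1.62 and 1.61, but no longer passed (FDR 0.287 and 0.187).

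Tnfsf11 was the ligand with the largest excess in CD26+ NFs, by 3.11 ± 0.62 in control medium (FDR 0.000694) and by 2.7 ± 0.52 in CM (FDR 0.000262), where the lowest CD26+ library overlapped the CD26- libraries. With the epithelial covariate the excess was 3.50 and 3.04, no smaller than without it, at an FDR of 0.0955 and 0.0774. Its receptor Tnfrsf11a was lower in CD26+ NFs. It had 1.74, 1.20 and 1.22 CPM in CD26- and 0.324, 0.444 and 0.371 CPM in CD26+ controls (-1.82 ± 0.44, FDR 0.00141), and 1.02 to 2.33 with a median of 1.5 against 0.300 to 0.976 with a median of 0.531 in CM (-1.52 ± 0.29, FDR 0.000115). The groups did not overlap in either medium, and with the epithelial covariate the values were -0.82 and -0.68 and not called (FDR 0.573 and 0.524).

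Tnf was low throughout and lower in CD26+ NFs. CD26- controls had 1.65, 1.28 and 1.62 CPM and CD26+ controls 0.243, 0.296 and 0.223 CPM, 56 reads against 10 (-2.53 ± 0.78, FDR 0.00497). In CM it had 0.619 to 2.7 CPM with a median of 1.55 in CD26- and 0.0758 to 1.03 CPM with a median of 0.239 in CD26+ libraries (-2.21 ± 0.51, FDR 0.000471), with overlap through the CD26+ library of line 13-MCB-44, without which the value was -2.97 (FDR 2.58e-05). With the epithelial covariate the values were -0.24 and -0.30, at an FDR of 0.938 and 0.876. Tnfsf8 was lower in CD26+ NFs in control medium (-1.67 ± 0.28, FDR 6.14e-05) and in CM (-3.22 ± 0.22, FDR 1.21e-09), without overlap, and with that covariate the values were -1.86 (FDR 0.0537) and -3.39 (FDR 0.000333). Tnfsf9 was lower by a smaller amount (-1.03 ± 0.19, FDR 0.000230, and -0.35 ± 0.12, FDR 0.0204), and with the covariate the values were -0.73 and -0.09 (FDR 0.214 and 0.894). The call of Tnfsf9 in CM was also lost without the filter and without CD26- CM replicate 7 (FDR up to 0.0591). Tnfsf12 was higher in CD26+ NFs, with means of 4.07 ± 0.62 against 7.96 ± 0.66 CPM in control medium (0.97 ± 0.16, FDR 7.90e-05) and 5.27 ± 0.91 against 8.04 ± 0.67 CPM in CM (0.61 ± 0.11, FDR 0.000145), and neither call held with the covariate (0.77 and 0.43). Of its exon bases 48.3% also belong to the read-through gene Tnfsfm13 on the same strand, so its count is uncertain. Tnfsf10 was higher in CD26+ NFs in control medium (1.93 ± 0.37, FDR 0.000212, and 2.01, FDR 0.217, with the covariate), and its log2 fold change of -0.99 ± 0.51 in CM did not pass (FDR 0.0839), but passed without replicate 18 (-1.32, FDR 0.0344) or CD26- CM replicate 5 (FDR 0.0226).

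Of the receptors with a death domain, Tnfrsf1a was higher in CD26+ NFs in control medium (1.05 ± 0.07, FDR 5.50e-09) and in CM (0.70 ± 0.05, FDR 4.31e-09) without overlap. Tnfrsf10b was lower (-0.69 ± 0.06, FDR 2.30e-07, and -0.49 ± 0.05, FDR 8.34e-08), and so was Tnfrsf21 (-0.84 ± 0.18, FDR 0.000746, and -0.83 ± 0.13, FDR 2.92e-05). With the epithelial covariate Tnfrsf21 was at -0.03 and -0.13 (FDR 0.958 and 0.730), and Tnfrsf10b at -0.39 (FDR 0.0197) and -0.24 (FDR 0.0672). Ngfr was not called in either medium, but passed in control medium with the compared groups only (0.93, FDR 0.00343) and in CM without replicate 18 (-0.82, FDR 0.0388, against -0.36, FDR 0.440, with it). Among the receptors that bind TRAFs, Tnfrsf14 was higher in CD26+ NFs in control medium (1.23 ± 0.21, FDR 7.53e-05) and in CM (1.11 ± 0.12, FDR 4.96e-07). Ltbr was higher by less (0.38 ± 0.05, FDR 1.16e-05, and 0.19 ± 0.04, FDR 0.000251). Tnfrsf1b was close in mean in control medium (0.00 ± 0.12, 95% interval -0.23 to 0.23) and higher in CM (0.37 ± 0.08, FDR 0.000911). Cd40, Eda2r and Tnfrsf12a were lower in control medium (-1.59 ± 0.28, -1.02 ± 0.13 and -0.73 ± 0.08), with smaller values in CM (-0.43 ± 0.18, FDR 0.0505, -0.26 ± 0.09, FDR 0.0235, and -0.34 ± 0.06, FDR 5.15e-05). The difference of Cd40 in CM passed with the CM line as a block (FDR 0.0393) and in 6 other alternatives. That of Eda2r was lost in 6 without a change of sign (FDR up to 0.0700), replicate 18 left out among them. It was also lost, with a change of sign, with the epithelial covariate. With that covariate Cd40 was at -0.87 (FDR 0.272) and Eda2r at -0.56 (FDR 0.120) in control medium, where Tnfrsf12a still passed. In CM, Cd40 turned to 0.21 (FDR 0.771), Eda2r turned to 0.13 (FDR 0.675) and Tnfrsf12a was at -0.21 (FDR 0.301).

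Tnfrsf19 had 1.74, 1.79 and 1.49 CPM in CD26- and 1.21, 4.44 and 3.04 CPM in CD26+ controls, with overlap and no call (0.81 ± 0.36, FDR 0.0717, and 0.00408 without CD26+ control replicate 10). In CM it had 0.732 to 1.65 CPM with a median of 0.996 against 1.69 to 3.33 CPM with a median of 2.58, without overlap (1.28 ± 0.28, FDR 0.000637, and 1.60, FDR 0.0809, with the epithelial covariate). Tnfrsf18 had 0.290, 0.256 and 0.338 CPM in CD26- and 1.05, 0.593 and 1.26 CPM in CD26+ controls (1.67 ± 0.62, FDR 0.0232). In CM it had 0.160 to 1.24 with a median of 0.500 against 0.634 to 1.73 with a median of 1.21 (0.95 ± 0.36, FDR 0.0272), with overlap. Both Tnfrsf18 calls were lost without single libraries (FDR up to 0.0862), and the antisense gene Gm16008 overlaps 27.2% of its exon bases. Of the decoys Tnfrsf22 was lower in CD26+ NFs, at 18.5 ± 1.0 against 12.1 ± 2.1 CPM in control medium (-0.61 ± 0.14, FDR 0.00122) and 19.4 ± 1.7 against 11.6 ± 1.7 CPM in CM (-0.74 ± 0.10, FDR 3.99e-06), and with the epithelial covariate it was at -0.16 and -0.35 (FDR 0.747 and 0.266). Tnfrsf23 was not called in any contrast, and its lowest group mean was 77.5 ± 8.0 CPM, in CD26+ CM libraries. Tnfrsf26 was lower in CM (-0.41 ± 0.15, FDR 0.0249, and -0.92, FDR 0.0767, with that covariate) and at -0.13 ± 0.22 in control medium, and its CM effects did not differ at the FDR (-0.28 ± 0.27, FDR 0.565).

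**Figure D4:**
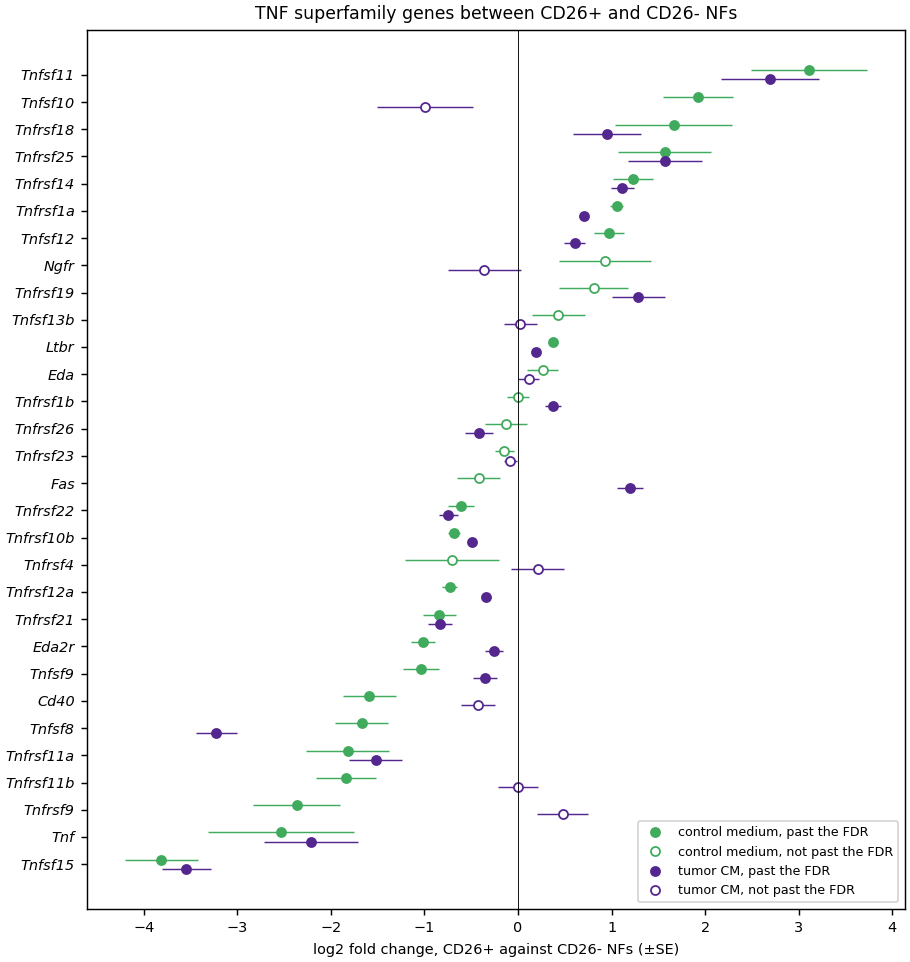
Log2 fold change between CD26+ and CD26- NFs for the 30 tested members in control medium (green) and in CM (purple), with SE bars, where filled points passed the FDR. Tnfsf11 and Tnfsf15 mark the ends, and the purple points of Tnfsf10, Fas, Cd40, Tnfrsf11b and Tnfrsf9 lie far from the green ones.

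The third comparison asked whether the line that conditioned the medium mattered. Over the 12 CM libraries, with the cell type as a term, 3 of the 28 members tested there passed the FDR for the line, against 6.69% of all genes. They were Tnfsf11 (F = 22.4, FDR 0.00902), Tnfrsf21 (F = 15.5, FDR 0.0124) and Ngfr (F = 8.88, FDR 0.0400). Tnfrsf9 came next (FDR 0.0552). Each line stands for 1 library per cell type, so whether a line acted differently on both cell types could not be tested.

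Tnfsf11 was lowest in both cell types with medium of 13-MCB-17, at 1.12 CPM in CD26- and 5.00 CPM in CD26+ NFs. With 10-SJK-221 it had 2.04 and 8.70 CPM, with 13-MCB-90 3.88 and 14.7 CPM, with 18-MCB-12 2.56 and 31.6 CPM, and with 13-MCB-44 5.33 and 32.8 CPM. It was highest in both with 13-MCB-138, at 7.52 and 51.5 CPM. The highest value was 6.71 times the lowest in CD26- NFs and 10.3 times in CD26+ NFs. The call for the line held in every alternative, including the epithelial covariate (FDR 0.0294). The summed fibroblast markers were also highest with 13-MCB-138 in both cell types, at 31188 and 64870 CPM. In CD26+ NFs they were 38748 to 41916 CPM with 13-MCB-17, 10-SJK-221 and 13-MCB-90 and 52413 and 61566 CPM with 13-MCB-44 and 18-MCB-12, and their part in the pattern of Tnfsf11 was not tested.

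Tnfrsf21 was highest in both cell types with medium of 13-MCB-44, at 76.4 CPM in CD26- and 46.1 CPM in CD26+ NFs. It was next with 13-MCB-138, at 67.4 and 33.6 CPM, and the other 4 lines gave 46.8 to 54.5 CPM and 27.1 to 31.3 CPM. The epithelial markers were also highest with 13-MCB-44 in both cell types, at 4822 and 1695 CPM summed, and with their mean as a covariate the FDR for the line was 0.0547. Leaving out a library of this line gave an FDR of 0.0848 (CD26+) and 0.0537 (CD26-). Ngfr was highest in both with 13-MCB-138, at 3.54 and 3.84 CPM, and second with 13-MCB-44, at 2.85 and 1.74 CPM. The other lines gave 1.02 to 1.94 CPM in CD26- and 0.675 to 1.44 CPM in CD26+ NFs. Its FDR stayed under 0.05 in 1 of 12 refits without a single library, and was 0.112 with the epithelial covariate.

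**Figure D5:**
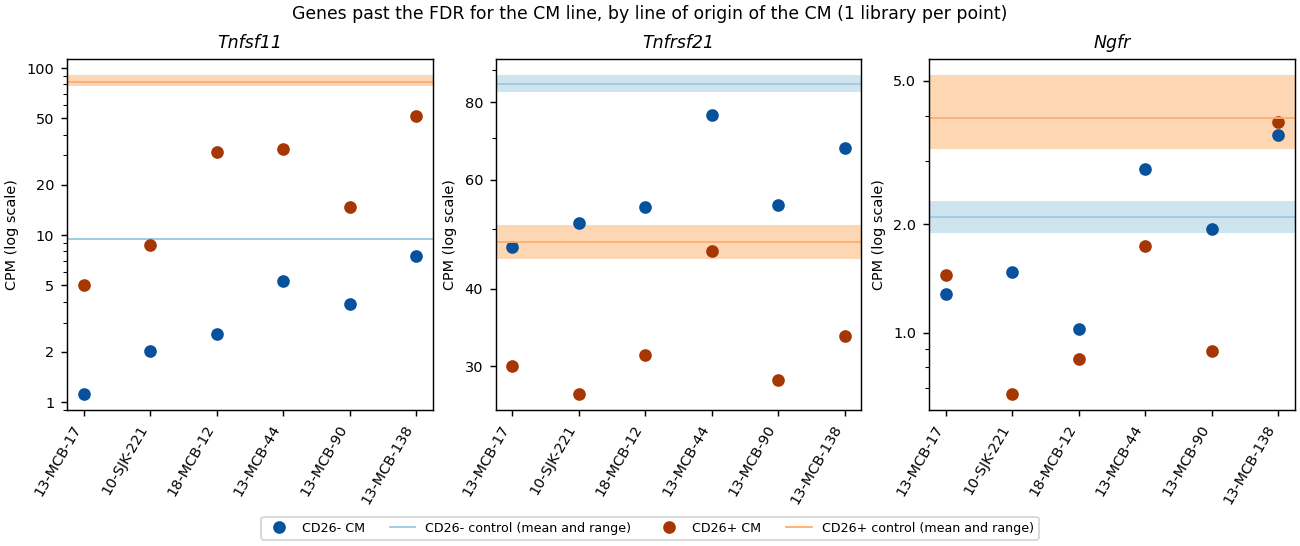
CPM on log axes of Tnfsf11, Tnfrsf21 and Ngfr by the line that conditioned the medium, 1 library per point, for CD26- (blue) and CD26+ (brown) NFs, with the mean and range of the control libraries as lines and bands. Tnfsf11 lies below the controls with all 6 lines and highest with 13-MCB-138, and Tnfrsf21 is highest with 13-MCB-44 in both cell types.

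Of the 15 members that changed with CM in CD26+ NFs, 13 had their weakest change with medium of 13-MCB-138, against 67.5% of all genes that changed. The exceptions were Eda2r, weakest with 18-MCB-12, and Tnfrsf21, weakest with 13-MCB-44. This count was made after the values were seen. Without that library 11 members rose and 5 fell in CD26+ NFs. In CD26- NFs 13-MCB-138 gave the weakest change in 1 of the 5 members that changed and 13-MCB-44 in 2, against 27.7% and 48.8% of all genes that changed.

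Genes that act below these receptors were counted from 4 lists, beside 15.1% up and 13.3% down over all tested genes with CM in CD26+ NFs (28.5% in all) and 7.85% up and 7.2% down in CD26- NFs (15.1% in all). Of 18 adaptors and kinases 4 rose and 2 fell with CM in CD26+ NFs, against 0 up and 4 down in CD26- NFs, which is 33.3% and 22.2% called, near the share of all genes. Traf1, an adaptor that NF-kB induces, fell in CD26- NFs from 8.44 ± 1.3 to 2.55 ± 0.93 CPM (-1.72 ± 0.29, FDR 0.000829). It had 1.46 ± 1.1 and 1.22 ± 0.30 CPM in CD26+ NFs (FDR 0.685). Of 18 genes that attach or remove ubiquitin in receptor complexes or bind them, 8 rose and 2 fell in CD26+ NFs, against 1 up and 1 down in CD26- NFs. These are 55.6% called in CD26+ NFs and 11.1% in CD26- NFs, above and below the shares of all genes. All 4 lists were chosen with earlier results of these data known. Birc3, a ubiquitin ligase of the TNFR1 complex, rose in CD26+ NFs from 15.1 ± 0.49 to 38.6 ± 7.5 CPM (1.36 ± 0.14, FDR 3.75e-06). Tnfaip3 (A20), an inhibitor of NF-kB, rose from 19.6 ± 6.4 to 60.2 ± 20.8 CPM (1.62 ± 0.29, FDR 0.000930). Ikbke, a kinase related to those of the IKK complex, rose from 13.7 ± 1.4 to 33.1 ± 6.6 CPM (1.28 ± 0.19, FDR 0.000138), and it also rose in CD26- NFs (0.84 ± 0.18, FDR 0.00763). The effects differed between the cell types for Birc3 (1.02 ± 0.19, FDR 0.00593) and Tnfaip3 (1.41 ± 0.39, FDR 0.0400). For Ikbke and Traf1 the difference did not pass (FDR 0.315 and 0.0664). The alternatives were examined for the members only, so how far calls of list genes depend on them was not tested.

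Of 11 genes of the cell death machinery 3 rose and 1 fell in CD26+ NFs, against 0 up and 1 down in CD26- NFs, or 36.4% and 9.09% called, near or below the 28.5% and 15.1% of all genes. Of 5 genes that shed TNF ligands and receptors or control shedding 4 rose and 1 fell in CD26+ NFs, against 0 up and 1 down in CD26- NFs. Rhbdf2 (iRhom2), which brings the protease Adam17 to the surface, rose in CD26+ NFs from 9.52 ± 1.6 to 25.9 ± 5.3 CPM (1.45 ± 0.16, FDR 9.93e-06). Its effect differed from that in CD26- NFs by 1.08 ± 0.21 (FDR 0.00760). The median log2 fold change in CD26+ NFs was 0.12 for adaptors and kinases, 0.15 for ubiquitin regulators, 0.03 for the death machinery and 0.34 for shedding, against -0.004 over all tested genes.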

How the data were processed

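Polyadenylated RNA was sequenced from 18 cultures, as stranded libraries on HiSeq and NovaSeq instruments per the labels, with no label saying which library ran on which. The deposited table holds raw counts per gene that the authors made without normalization. The submitters' processing notes name HISAT2 2.1.0, HTSeq and GRCm38; the strand setting and annotation release are not given in the sources used here. One row without a gene held 0 counts and was left out.

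Genes were kept with filterByExpr by group, scaled with TMM and tested with edgeR 4.0.16 in R 4.3.3 (robust quasi-likelihood F test, 1 model of 4 groups, Benjamini-Hochberg FDR over all 14273 tested genes, calls at 0.05). The line effect was fitted on the 12 CM libraries (13344 genes). CPM divide each count by its library size after TMM scaling. CPM per kb used exon lengths of GENCODE M21. Its coordinates of Tnfsf15, alone among the members, differ from those in the deposited table, so the value per kb of Tnfsf15 is less certain. SE are Wald errors of the fit, and the common biological coefficient of variation was 0.117. Intervals of read ratios cover counting error only. The tests were also run on simulated libraries drawn independently, and the outcome is not given here.

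Members, roles and lists were chosen with earlier results of these data known. Values in each library are given for members that averaged 1 CPM or more in any group and passed the FDR in the difference or for the line, or with a log2 fold change past 1 in size in another contrast. Other tested members are given by means, and list genes past the FDR and a log2 fold change of 1 in size with CM are named. Libraries given CM of the same line deviated together in all 6 pairs (r = 0.247 to 0.406), so the line served as a replicate block in an alternative. Other alternatives were DESeq2 1.42.0, which the study used, RLE scaling, no filter, a minimum mean of 5 CPM, the compared groups only, each library left out and an epithelial covariate, which for CM and line effects was chosen after seeing the data. No library was a copy of another (lowest chi-square per degree of freedom 3.03).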

Additional observations from a re-analysis of the deposited data

Results flagged for a closer look

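Among the members, 9 CM effects differed between CD26- and CD26+ NFs by the interaction test of edgeR (FDR under 0.05). On the log2 scale, as CD26+ minus CD26-, the differences were 1.62 for Fas, 2.84 for Tnfrsf9, 1.84 for Tnfrsf11b, 1.16 for Cd40, 0.76 for Eda2r and 0.39 for Tnfrsf12a. They were -2.92 for Tnfsf10, -1.55 for Tnfsf8 and -0.35 for Tnfrsf1a. Libraries far from the rest of their group were sought in 39 groups of 6 libraries for the members described in each library, and on the log2 CPM scale 0 passed Dixon's limit for 6 libraries. On the CPM scale 3 passed, all of them the highest library of CD26+ CM. With medium of 13-MCB-138 this was Ngfr at 3.84 CPM, next to 1.74 CPM, and with medium of 13-MCB-44 Tnf at 1.03 CPM, next to 0.357 CPM, and Tnfrsf21 at 46.1 CPM, next to 33.6 CPM. By chance about 1 in 20 groups would pass, and the CPM scale was added after seeing the data.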

How the results depend on the processing

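Of 58 calls made for the members described in each library, 23 held in every alternative and 35 missed the FDR in at least 1, and of 47 values not called 14 passed in at least 1. Counts of members higher or lower moved as follows. A minimum of 5 CPM also left fewer members to test, so lower counts there include members that dropped out. For CM in CD26- NFs 4 higher became 1 at a minimum of 5 CPM and with the epithelial covariate, 0 past a log2 fold change of 2, and 1 to 4 without 1 library. There, 1 lower became 3 with DESeq2, 2 with RLE scaling, 4 with the compared groups only, 0 without a filter, with the epithelial covariate and past 2, and 0 to 3 without 1 library. For CM in CD26+ NFs 10 higher became 6 at 5 CPM, 1 past 2 and 6 to 11 without 1 library, and 5 lower became 3 without a filter, 3 at 5 CPM and 1 past 2. Between cell types in control medium 8 higher and 13 lower became 4 and 8 at 5 CPM, 3 and 3 with the epithelial covariate, and 1 and 3 past 2. In CM 10 higher became 6 at 5 CPM, and 10 and 11 became 4 and 2 with the covariate and 1 and 3 past 2. For the difference 6 higher became 1 past 2 and 2 to 8 without 1 library, and 3 lower became 1 at 5 CPM, 1 past 2 and 5 with the CM line as a replicate block. For the line 3 became 1 with the epithelial covariate and 1 to 9 without 1 library (1 without replicate 7 or 16, 9 without replicate 9).

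Some values changed sign. With the epithelial covariate these were CM in CD26- NFs for Cd40 (0.0895), Ngfr (0.12) and Tnfrsf1a (-0.0267), the cell types in CM for Cd40 (0.21), Eda2r (0.13, the only called value), Ngfr (0.30), Tnfrsf23 (0.15), Tnfsf13b (-0.13) and Tnfrsf4 (-0.26), in control medium for Tnfrsf1b (0.24) and Tnfrsf23 (0.12), CM in CD26+ NFs for Tnfsf12 (-0.01), and the difference for Tnf (-0.0639), Tnfrsf21 (-0.0993) and Tnfrsf25 (-0.00585). Tnfrsf25 also turned with the line block (-0.00754), and Tnfrsf11b between cell types in CM at 5 CPM (-0.0118) and with the compared groups only (-0.00301). Without 1 library the ranges that crossed 0 were, for the members described in each library, for CM in CD26- NFs, Cd40 -0.21 to 0.0925, Ngfr -0.28 to 0.0814, Tnf -0.13 to 0.24 and Tnfrsf1a -0.00995 to 0.0508. For CM in CD26+ NFs they were Tnf -0.36 to 0.62, Tnfrsf18 -0.0484 to 0.46 and Tnfrsf19 -0.54 to 0.25. Between cell types in CM it was Tnfrsf11b, -0.10 to 0.18. For the difference they were Tnf -0.45 to 0.53, Tnfrsf14 -0.19 to 0.00968, Tnfrsf21 -0.13 to 0.10 and Tnfrsf25 -0.42 to 0.34. The causes were not tested.

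With the line block the difference also passed for Ngfr (FDR 0.0142), Ltbr (FDR 0.0367), Tnfrsf1b (FDR 0.0214) and Tnfsf9 (FDR 0.0403), and the cell types in CM for Cd40 (FDR 0.0393) and Tnfrsf9 (FDR 0.0290), and the block changed no other call of a member in these 2 contrasts. Reads limit Tnf, Tnfsf10, Tnfrsf11a, Tnfrsf18 and Tnfrsf25, each at 15 reads or fewer summed over at least 1 group. Low counts do not show that a member is absent.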
